A study of Mus musculus with 175 samples.

Results

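Cytosolic ribosomal protein genes were taken from the deposited gene annotation as the protein coding genes whose symbol is Rps, Rpl or Rplp, followed by a number and at most a few paralog letters. This rule uses names and no measured value. It gave 84 of the 49585 mouse features, 31 of the small subunit and 53 of the large subunit. Of these, 76 encode core subunits and 8 are paralogs of another member (Rpl3l, Rpl6l, Rpl7l1, Rpl10l, Rpl22l1, Rpl36al, Rpl39l and Rps27l). An average of at least 1 read per cell was reached by 82 members and by 11860 features in all. Rpl3l and Rpl10l did not reach it.

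The counts come from single cells of mouse fetal liver, sorted at 14.5 days post fertilization from C57BL/6 crossed with ICR embryos and sequenced as full-length cDNA by Smart-Seq2. Human CD4 (hCD4) in these embryos reports transcription from the P2 promoter of Runx1, a transcription factor of blood formation. The sample labels write the genotype as Runx1 P2-GFP::P2-hCD4/+ and the protocol and the article as P1-GFP::P2-hCD4/+, and this difference was not settled. All 4 populations carry this reporter and no population is without it. Megakaryocyte-erythroid progenitors (MEPs) are CD41- CD150+ Lin- SCA1- KIT+ cells with low CD16/32 and no CD34, and common myeloid progenitors (CMPs) have CD34. Each was divided by hCD4 into P2- and P2+ cells, so the groups are gates on surface markers and a reporter, not pure cell types. The labels call the CMPs low and high, which was read as P2- and P2+. After filters, 172 of 175 cells remained, 56 P2- and 47 P2+ cells among the MEPs and 27 P2- and 42 P2+ cells among the CMPs. Where 4 values follow each other for the populations, they stand in this order. Because livers of 2 litters had been pooled before the sort, a population counts as 1 sample, its cells are not replicates and no test between populations was made. All 95% intervals cover counting error only, and PCR copies are counted as separate reads.

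Ribosomal proteins assemble with ribosomal RNA into the small subunit, which decodes the mRNA, and the large subunit, which forms the peptide bond. Most are made in equal amounts, and most of their mRNAs begin with a run of pyrimidines at the 5' end (the terminal oligopyrimidine tract), through which mTOR and LARP1 control their translation. Red cell precursors depend on a large supply of ribosomes, and loss of a single copy of several of these genes causes Diamond-Blackfan anaemia, a failure of red cell production.

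RefSeq windows around annotated transcription starts (GRCm38.p6) were given for 63 of the 84 members. A C followed by at least 5 further C or T on the strand of the gene, beginning within 10 bases either side of a listed start, was present for 34 of these 63 (53.97%) and for 5910 of all 27025 genes of the table (21.9%). The windows of 10 members on which the results turn are shown so that such a run, or its absence, can be seen. Each window goes from 10 bases before the start to 20 bases from it on, 5' to 3', with the run in capitals where there is one. A match describes these letters only. The run can lie before the listed start, as that of Rpl39l does, so it was not shown to be the tract of the mRNA. Nor does a window without a run show that the mRNA lacks the tract.
Rps27, chr3:90213629-90213658, minus strand: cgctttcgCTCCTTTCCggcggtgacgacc
Rplp2, chr7:141447641-141447670, plus strand: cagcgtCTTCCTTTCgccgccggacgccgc
Rpl12, chr2:32961702-32961731, plus strand: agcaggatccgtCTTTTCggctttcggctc
Rpl13a, chr7:45128726-45128755, minus strand: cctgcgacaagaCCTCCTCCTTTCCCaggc
Rpl15, chr14:18270967-18270996, minus strand: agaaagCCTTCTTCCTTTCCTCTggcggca
Rpl22l1, chr3:28805498-28805527, plus strand: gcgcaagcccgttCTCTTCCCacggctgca
Rpl39l, chr16:10170218-10170247, plus strand: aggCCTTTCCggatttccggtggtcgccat
Rplp0, chr5:115559457-115559486, plus strand: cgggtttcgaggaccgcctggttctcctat
Rpl7l1, chr17:46782637-46782666, minus strand: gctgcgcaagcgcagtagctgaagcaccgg
Rpl36al, chr12:69184048-69184077, minus strand: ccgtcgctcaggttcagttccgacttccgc
The first 7 windows hold a run and those of Rplp0, Rpl7l1 and Rpl36al do not. Over the members with at least 1 read per cell on average, the median log2 ratio of P2- CMPs over P2- MEPs was -0.23 for the 34 with a run and -0.27 for the 27 without it.

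Reads on mouse genes ranged from 295064 to 1540631 per cell, with medians of 520540 in P2- MEPs to 804632 in P2+ CMPs. No 2 cells held identical counts. The list of 8 erythroid genes, among them Klf1, Epor, Gata1 and Alas2, summed to 1398, 709, 258.6 and 75.2 CPM (reads per 1000000 reads on mouse genes) in the 4 populations, and the list of 8 granulocyte and monocyte genes to 16.3, 66.6, 435 and 700.2 CPM. The megakaryocytic list summed to 53.9, 478, 547 and 618 CPM (Pf4, Gp9 and Gp1bb at 0 in P2- MEPs), the stem and multipotent list to 343.002, 541, 1106 and 1522 CPM, and the mast and basophil list, nearly all Gata2 and Cpa3, to 35.5, 214.8, 246.9 and 136 CPM. Both MEP populations thus had the more erythroid markers and both CMP populations the more myeloid and stem markers. The hepatocyte list summed to 10.6 to 24.7 CPM, with Serpina1a at 0 in all 4 populations, and the macrophage list to 0.0545 to 1.49 CPM, with C1qa, C1qb, C1qc, Adgre1 and Cd5l at 0 in all. The endothelial list summed to 0.0980, 1.43, 27.5 and 67.5 CPM, led by Emcn in CMPs, and the lymphoid list, which was Cd79b to nearly all of its reads in all but the first population, to 0.0327, 21.8, 79.6 and 84.4 CPM. A single P2- CMP has a label naming it an MEP, and the summed level without it is given with the other settings.

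The members took up between 10.6% and 12.4% of the reads of every population, and the share was higher in MEPs than in CMPs. Their summed reads were 12.4 and 11.6% of all reads on mouse genes for the P2- and P2+ MEPs and 10.6 and 10.6% for the P2- and P2+ CMPs. The exact binomial interval for P2- CMPs, the population with the fewest reads, was 10.54 to 10.57%. Over single cells the lowest, median and highest shares were 10.6, 12.4 and 14.7% for the P2- and 8.66, 11.5 and 13.6% for the P2+ MEPs. Among CMPs they were 9.40, 10.5 and 13.9% for the P2- and 8.27, 10.5 and 12.8% for the P2+ cells. The ranges overlapped in all 4 comparisons, but 26 of 27 P2- CMPs and 41 of 47 P2+ MEPs lay below the median P2- MEP, and 36 of 42 P2+ CMPs below the median P2+ MEP. P2+ and P2- CMPs were close, with 22 of 42 P2+ CMPs below the median P2- CMP. Like the share, the sum of the erythroid list was highest in P2- MEPs and higher in MEPs than in CMPs, but between the CMPs it was 258.6 and 75.2 CPM for P2- and P2+ cells with shares that were close. Over the cells of 1 population, the rank correlation of the erythroid sum with the share was between -0.19 and 0.18 (27 to 56 cells, a description). Over the 27 P2- CMPs it was -0.57 for the lymphoid list, of which Cd79b led, and -0.47 for the megakaryocytic list, against 0.04, 0.08 and 0.17 and -0.08, -0.12 and -0.14 in P2- MEPs, P2+ MEPs and P2+ CMPs. The endothelial list was at -0.34 over the P2+ CMPs. The part of these markers in the share was not tested.

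**Figure D1:**
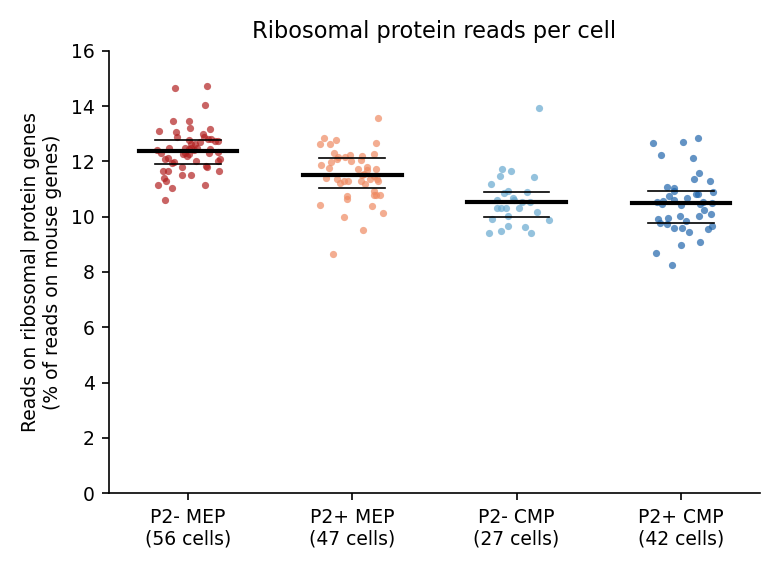
Reads on the 84 ribosomal protein genes as a percent of all reads on mouse genes, 1 point per cell, for the 4 populations. Thick lines are medians over cells and thin lines quartiles. P2- MEPs have the highest median (12.4%) and both CMP populations the lowest (10.5 and 10.5%).

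As log2 ratios of the summed level (CPM), the members were at -0.10 in P2+ over P2- MEPs, 0.00 in P2+ over P2- CMPs, -0.23 in P2- CMPs over P2- MEPs and -0.13 in P2+ CMPs over P2+ MEPs. The difference between P2- CMPs and P2- MEPs is a level 0.855 times as high. These comparisons share populations, each of which enters 2 of them, and values for the 4 comparisons are given in this order throughout. For P2- CMPs over P2- MEPs the log2 ratio was -0.20 for the summed small subunit genes and -0.25 for the summed large subunit genes. Reads on small subunit genes per read on large subunit genes were 0.811, 0.812, 0.836 and 0.843 in the 4 populations, with single cells between 0.748 and 0.948. Against the reads on the ERCC spike-in RNA, of which P2- MEPs had the smallest median share (1.46, 2.48, 2.14 and 1.73% of counted reads in the 4 populations), there were 7.79, 4.75, 4.66 and 5.87 member reads per spike-in read, and P2+ CMPs were then above both P2+ MEPs and P2- CMPs. On that scale the summed ratios were -0.71, 0.33, -0.74 and 0.31 in the 4 comparisons, so that of P2+ CMPs over P2+ MEPs changed sign. The median of all genes moved as well, from 0.05, -0.02, 0.11 and 0.01 to -0.56, 0.31, -0.41 and 0.44. Relative to the median of all genes, the median member was at -0.13, 0.03, -0.34 and -0.16. A change of denominator moves every gene by the same amount, so these values are the same on either scale by construction. Whether the members or the rest of the RNA differed cannot be told apart from shares of reads, nor fewer copies per cell from a smaller share. Reads aligned to several places, which are lost to the members with copies elsewhere, were 10.8, 9.84, 9.92 and 10.3% of all reads in the 4 populations. Over the cells of 1 population, the share of the members had a rank correlation with this percentage of 0.32, 0.25, 0.18 and 0.44, above 0 in all 4 and given as a description. The part of such reads in these ratios was not tested.

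Gene by gene, few members were more than 1.5-fold apart between 2 populations per read on mouse genes. In P2+ over P2- MEPs, 1 of 82 members was higher by more than 1.5-fold and 0 lower, against 24.5% and 13% of the genes that average at least 1 read per cell and pass the floor in one of the populations. In P2+ over P2- CMPs, 1 was higher and 1 lower, against 17.1% and 18.2%. In P2- CMPs over P2- MEPs, 1 was higher and 3 were lower, against 32.5% and 17.7%. In P2+ CMPs over P2+ MEPs, 0 were higher and 3 lower, against 25.5% and 20%. All of the calls per read on mouse genes were of Rpl39l, Rpl24, Rpl13a, Rpl36al or Rpl12, whose values are given with those genes, and the ratios of Rpl39l are bounds against a floor of 3 reads. Per spike-in read the counts were 1 higher and 73 lower in P2+ over P2- MEPs (12.6% and 48.4% of all genes), 3 higher and 1 lower in P2+ over P2- CMPs (30.2% and 10.5%), 1 higher and 65 lower in P2- CMPs over P2- MEPs (21.1% and 41.3%) and 7 higher and 1 lower in P2+ CMPs over P2+ MEPs (42.5% and 9.96%). At any size and per read on mouse genes, 68 of 82 members were lower in P2+ than in P2- MEPs (46.1% of all genes), 41 in P2+ than in P2- CMPs (51.7%), 77 in P2- CMPs than in P2- MEPs (44.8%) and 63 in P2+ CMPs than in P2+ MEPs (49.3%).

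Most genes are read much less often than the members, and ratios of scarce genes vary more. The members were therefore also set beside the 43 other genes whose level over all cells lay between the quartiles of the members, 895 to 1956 CPM, a range that holds 40 members. In P2- CMPs over P2- MEPs the median log2 ratio was -0.24 for these members and -0.19 for the other genes, with 39 of 40 members below 0 against 74.4% of the other genes. In P2+ CMPs over P2+ MEPs the medians were -0.19 and -0.08, with 34 members below 0 against 60.5%. In P2+ over P2- MEPs they were -0.07 and -0.11, with 32 members below 0 against 72.1%, and in P2+ over P2- CMPs 0.00 and 0.03, with 20 against 39.5%. The other genes of like level thus also had medians below 0 in both comparisons of CMPs with MEPs. The quartiles of the member ratios in P2- CMPs over P2- MEPs were -0.32 and -0.14, and those of the other genes -0.34 and 0.01. In P2+ over P2- MEPs, 37 of 40 members lay within 0.2 of 0 on the log2 scale against 62.8% of the other genes, and in P2+ over P2- CMPs 36 against 67.4%. It was 15 of the 40 against 32.6% in P2- CMPs over P2- MEPs and 21 against 53.5% in P2+ CMPs over P2+ MEPs. Past 1.5-fold, 0 of these 40 members were higher and 0 lower in P2+ over P2- MEPs (4.65% and 2.33% of the other genes), 0 and 0 in P2+ over P2- CMPs (0% and 2.33%), 0 and 0 in P2- CMPs over P2- MEPs (4.65% and 6.98%), and 0 and 1 in P2+ CMPs over P2+ MEPs (4.65% and 9.3%).

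**Figure D2:**
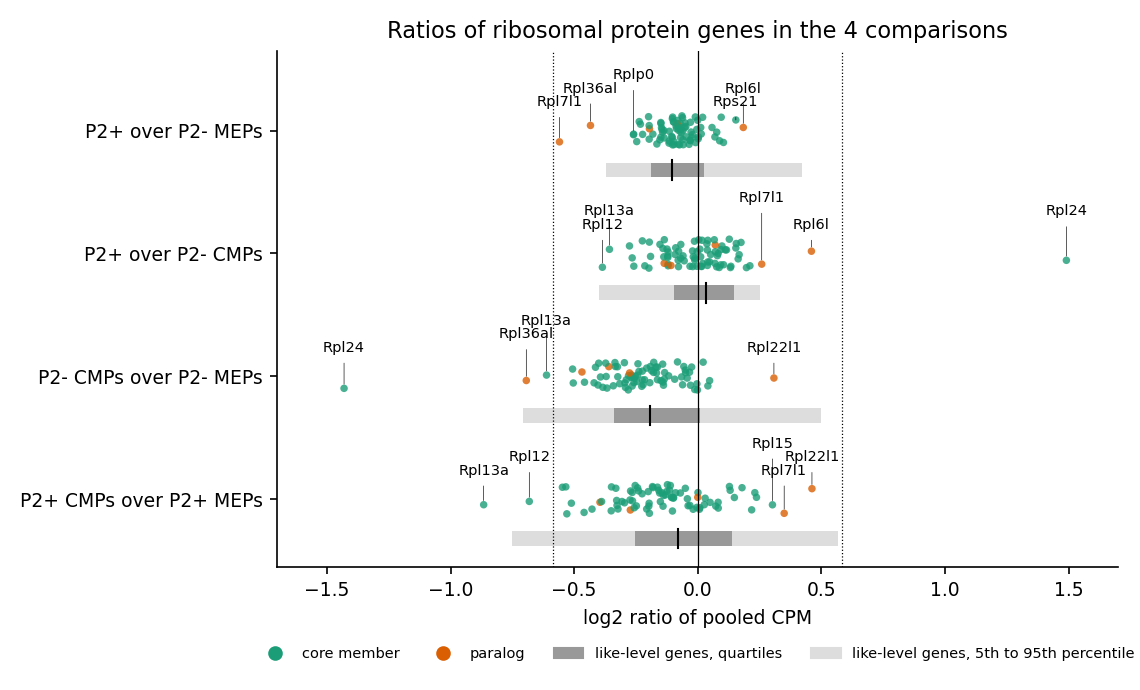
Log2 ratio of pooled CPM for each member that averages at least 1 read per cell in the 4 comparisons (points, core members green, paralogs orange), above bars that give the quartiles and the 5th to 95th percentiles of the 43 other genes of like level. Dotted lines mark 1.5-fold. Most members lie close to the median, with Rpl24, Rpl13a, Rpl12, Rpl36al, Rpl7l1 and Rpl22l1 at the edges, and Rpl39l is left out because its ratios are bounds beyond the axis.

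The stalk of the large subunit, built from Rplp0, Rplp1 and Rplp2, recruits the GTPase translation factors to the ribosome, and its genes were all lower in P2- CMPs than in P2- MEPs. Rplp0 was at 4334 and 3619 CPM in the P2- and P2+ MEPs and at 3240.1 and 3539 CPM in the P2- and P2+ CMPs, with log2 ratios of -0.26 (95% interval -0.27 to -0.25) in MEPs and -0.42 (95% interval -0.43 to -0.41) in P2- CMPs over P2- MEPs. Its lowest, median and highest cells were at 2929, 4315 and 5829.8 CPM among the P2- MEPs and 1995, 3205 and 4435 CPM among the P2- CMPs, ranges that overlap. Of the P2- CMPs, 25 of 27 lay below the median P2- MEP. Rplp1 was at 2769 and 2630.2 CPM in the P2- and P2+ MEPs and at 2079 and 1912 CPM in the P2- and P2+ CMPs, and 41 of 42 P2+ CMPs lay below the median P2+ MEP. Its ratio was -0.41 (95% interval -0.43 to -0.40) for P2- CMPs over P2- MEPs and -0.46 (95% interval -0.47 to -0.45) for the P2+ populations. Rplp2 was at 1479, 1478, 1205 and 1195 CPM in the same order, with ratios of -0.30 and -0.31. Its interval held 0 for P2+ over P2- MEPs (0.00, 95% interval -0.02 to 0.02) and for P2+ over P2- CMPs (-0.01, 95% interval -0.04 to 0.01). Against the spike-in reads the ratios of P2+ CMPs over P2+ MEPs were 0.40 for Rplp0, -0.03 for Rplp1 and 0.13 for Rplp2.

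Levels between genes can be set side by side only per length. Over all cells and among the 82 members that average at least 1 read per cell, the 5 of highest level per kilobase of exon of the principal transcript were Rps27 (5850.2 CPM per kilobase), Rps14 (4745), Rplp1 (4723), Rpl32 (4151) and Rpl41 (3998). Rps14 is the small subunit gene whose loss marks a form of myelodysplastic syndrome, and Rpl41 encodes the shortest protein of the ribosome. The 5 lowest of these 82 were Rpl39l (2.27), Rpl24 (2.74), Rpl6l (7.57), Rpl7l1 (93.5) and Rpl13a (113). The order depends on the length chosen. Per kilobase of coding sequence, 3 of these 5 highest and 4 of these 5 lowest were again among the 5 at that end. In pooled CPM, Rpl41 was at 2441, 2313, 2009 and 1915 and Rpl32 at 2091, 2119, 2122 and 2229 in the 4 populations, with log2 ratios of CMPs over MEPs of -0.28 (P2-) and -0.27 (P2+) for Rpl41 and 0.02 and 0.07 for Rpl32. Per spike-in read those of Rpl41 were -0.80 and 0.16, the second with the other sign, and those of Rpl32 -0.49 and 0.51, the first with the other sign.

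How much of each gene could be counted differed widely. In the GENCODE vM21 transcripts, the share of 70-base windows of a member found in no other gene ranged from 1.45% (Rps27) over a median of 49.4% to 100% (Rpl3l and Rpl39l among others). A window was shared with at least 1 pseudogene by 81 of 84 members. Rpl7a shared windows with 75 pseudogenes. Pseudogenes that share such windows, 594 in the files, held 3809.8, 3718, 3478 and 3419.8 CPM in the 4 populations, small beside the 123512 CPM of the members in P2- MEPs. Reads that align to several places enter no gene. Over the 76 core members that average at least 1 read per cell, the rank correlation of the share of own windows with the level per kilobase of coding sequence was 0.49, given as a description over genes that also differ in length and base composition. Rps27, with the fewest windows of its own, had the highest level per kilobase of exon. Exon overlap with another annotated gene went with low levels. The 6 members with at least 25% of their exon bases in another gene of the files were Rpl24 (71.5%), Rpl35 (68.3%), Rpl13a (59.3%), Rpl23a (55.4%), Rpl5 (46.6%) and Rpl22l1 (28.8%). Their median was 437 CPM per kilobase of coding sequence, against 3026 for the other members. Counting was without strand and left reads on 2 genes uncounted as ambiguous. The ambiguous share of uniquely mapped reads was 23.3, 26.9, 25.7 and 26.2% in the 4 populations, lowest in P2- MEPs, and its part in the ratios of these 6 genes was not tested. Their median ratio for P2- CMPs over P2- MEPs, -0.26, was close to the -0.23 of the others.

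**Figure D3:**
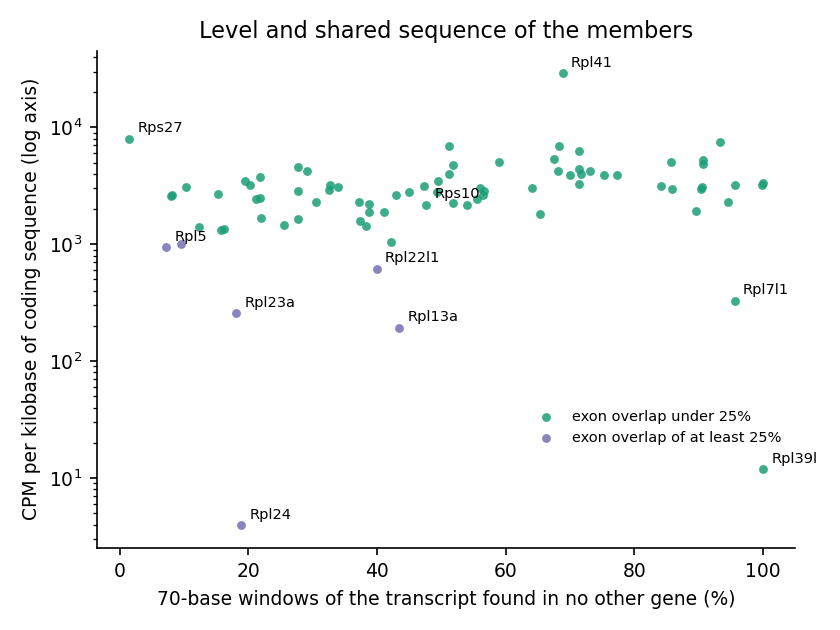
Level per kilobase of coding sequence over all cells (log axis) against the percent of 70-base transcript windows found in no other gene, 1 point per member that averages at least 1 read per cell (Rpl6l, annotated as a pseudogene in GENCODE vM21, has no coding length). Members with exon overlap of at least 25% (purple) lie low, from 3.94 (Rpl24) to 1003 (Rpl35) CPM per kilobase.

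Rpl24 stands apart as a core gene with almost no reads. It had 63 and 62 reads over all P2- and all P2+ MEPs and 14 and 78 over all P2- and all P2+ CMPs, that is 2.06, 1.96, 0.764 and 2.15 CPM, and most of its exon bases lie in Gm28037 on GRCm38 chr16:55966275-55971435. Its ratios of 1.49 (95% interval 0.66 to 2.43) in P2+ over P2- CMPs and -1.43 (95% interval -2.38 to -0.58) in P2- CMPs over P2- MEPs rest on the 14 reads of P2- CMPs, 7 of them in a single cell. After thinning every cell to 100000 reads, 6, 8, 2 and 7 cells of the 56, 47, 27 and 42 had a read of it, and no order was read from these shares.

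Rpl13a and Rpl12 had the lowest core ratios of P2+ CMPs over P2+ MEPs. In P2- CMPs over P2- MEPs Rpl13a was the lowest core gene after Rpl24, whereas Rpl12, at -0.24, was near the median of the members (-0.23). Rpl13a (GRCm38 chr7:45125558-45128761), which also acts in the interferon-induced complex that silences translation of inflammatory mRNAs, was at 152 and 142 CPM in the P2- and P2+ MEPs and at 99.5 and 77.7 CPM in the P2- and P2+ CMPs. Its lowest, median and highest cells were at 56.5, 146 and 308.1 CPM for P2- and 11.9, 126 and 419 CPM for P2+ among the MEPs, and 15.7, 82.3 and 273.9 CPM for P2- and 16.4, 71.8 and 171 CPM for P2+ among the CMPs. P2- MEPs were highest and P2+ CMPs lowest, with overlapping ranges, and 38 of 42 P2+ CMPs lay below the median P2+ MEP. The log2 ratio was -0.61 (95% interval -0.69 to -0.53) for P2- CMPs over P2- MEPs, -0.87 (95% interval -0.93 to -0.80) for P2+ CMPs over P2+ MEPs and -0.36 (95% interval -0.44 to -0.27) for P2+ over P2- CMPs, and per spike-in read these were -1.13, -0.43 and -0.03, so that P2+ CMPs over P2+ MEPs were within 1.5-fold. 59.3% of its exon bases overlap other genes, among them Flt3l, so only a part of its reads was counted.

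Rpl12 (GRCm38 chr2:32961559-32965345), a protein of the stalk base beside Rplp0, was at 1276 and 1328 CPM in the P2- and P2+ MEPs and at 1082 and 828 CPM in the P2- and P2+ CMPs. The lowest, median and highest cells were at 567, 1258 and 2174 CPM for P2- and 778, 1370.5 and 2064 CPM for P2+ among the MEPs, and 473, 1096 and 1769 CPM for P2- and 436, 827 and 1359 CPM for P2+ among the CMPs. P2+ CMPs stood below the other 3 populations. Of the P2+ CMPs, 42 of 42 lay below the median P2+ MEP and 38 of 42 lay below the median P2- CMP, although the ranges overlapped. The log2 ratio was -0.68 (95% interval -0.70 to -0.66) for P2+ CMPs over P2+ MEPs and -0.39 (95% interval -0.41 to -0.36) for P2+ over P2- CMPs, whereas P2+ over P2- MEPs was at 0.06 (95% interval 0.04 to 0.08). Against the spike-in reads these were -0.25, -0.06 and -0.56, the last with the other sign. Only 4.51% of its exon bases overlap another gene, and 51.8% of its windows were found in no other gene. Rplp0, at the same site of the ribosome, was at -0.03 (95% interval -0.04 to -0.02) for P2+ CMPs over P2+ MEPs.

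Rpl15, a large subunit gene affected in some patients with Diamond-Blackfan anaemia, was higher in P2+ CMPs than in P2+ MEPs. It was at 880.4 and 798 CPM in the P2- and P2+ MEPs and at 878 and 983 CPM in the P2- and P2+ CMPs, with a ratio of 0.30 (95% interval 0.28 to 0.33) for P2+ CMPs over P2+ MEPs, and 32 of 42 P2+ CMPs were above the median P2+ MEP. Its lowest, median and highest cells were at 379.01, 753 and 1146 CPM among the P2+ MEPs and 582, 972 and 1390.5 CPM among the P2+ CMPs. Rps21 of the small subunit had the highest core ratio of P2+ over P2- MEPs, 0.15 (95% interval 0.13 to 0.18), and a low ratio of -0.53 (95% interval -0.56 to -0.51) for P2+ CMPs over P2+ MEPs. Its pooled levels were 817, 908, 698 and 627 CPM. Against the spike-in reads the positive ratio of Rps21 was -0.46.

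Among the paralogs, Rpl22l1 and its parent Rpl22 differed in opposite directions between MEPs and CMPs per read on mouse genes, while against the spike-in reads both were lower in P2- CMPs than in P2- MEPs (-0.21 and -0.84) and both higher in P2+ CMPs than in P2+ MEPs (0.89 and 0.10). The proportion of the pair does not depend on the scale. Both bind RNA outside the ribosome as well, and Rpl22 is known to hold down Rpl22l1. Rpl22l1 (GRCm38 chr3:28805436-28807424) was at 203 and 192 CPM in the P2- and P2+ MEPs and at 251.3 and 263.9 CPM in the P2- and P2+ CMPs, and Rpl22 at 838, 809, 670.0 and 643 CPM in the same order. The lowest, median and highest cells of Rpl22l1 were at 86.02, 198 and 388 CPM for P2- and 51.8, 187 and 452 CPM for P2+ among the MEPs, and 96.7, 234.2 and 443 CPM for P2- and 51.1, 266.1 and 434 CPM for P2+ among the CMPs. The ranges overlapped, and CMPs were the higher at the median. Its log2 ratio was 0.31 (95% interval 0.25 to 0.36) for P2- CMPs over P2- MEPs and 0.46 (95% interval 0.42 to 0.51) for the P2+ populations, where Rpl22 was at -0.32 (95% interval -0.35 to -0.29) and -0.33 (95% interval -0.36 to -0.31). The share of Rpl22l1 in the reads of the pair was 19.5 and 19.2% for the P2- and P2+ MEPs and 27.3 and 29.1% for the P2- and P2+ CMPs. Of its exon bases, 28.8% overlap Gm33051. The share was above the median P2- MEP in 24 of 27 P2- CMPs and above the median P2+ MEP in 34 of 42 P2+ CMPs. Between P2+ and P2- cells of 1 compartment it was above the median of the other in 26 of 47 P2+ MEPs and 20 of 42 P2+ CMPs.

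Rpl36al, an autosomal paralog of the X-linked Rpl36a, was highest in P2- MEPs. It was at 616 and 456 CPM in the P2- and P2+ MEPs and at 381.1 and 346.8 CPM in the P2- and P2+ CMPs, while Rpl36a was at 868, 840.1, 813 and 858 CPM. Its lowest, median and highest cells were at 346.6, 601 and 994 CPM for P2- and 166, 455 and 744 CPM for P2+ among the MEPs, and 118, 403 and 730.2 CPM for P2- and 126, 351.04 and 584 CPM for P2+ among the CMPs. The highest level was that of P2- MEPs and the lowest that of P2+ CMPs, with overlapping cells. The ratio was -0.43 (95% interval -0.47 to -0.40) in P2+ over P2- MEPs, -0.69 (95% interval -0.73 to -0.65) in P2- CMPs over P2- MEPs and -0.40 (95% interval -0.43 to -0.36) in P2+ CMPs over P2+ MEPs, and 25 of 27 P2- CMPs lay below the median P2- MEP. Against the spike-in reads the ratio of the P2+ populations was 0.04. Its share of the reads of the pair was 41.5 and 35.2% for the P2- and P2+ MEPs and 31.9 and 28.8% for the P2- and P2+ CMPs. Rpl36a itself had ratios of -0.05, 0.08, -0.09 and 0.03 in the 4 comparisons.

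Rpl7l1, related to Rpl7, was lower in P2+ than in P2- MEPs and higher in P2+ than in P2- CMPs on both scales. It was at 294.4 and 199.8 CPM in the P2- and P2+ MEPs and at 212.8 and 254.5 CPM in the P2- and P2+ CMPs, with ratios of -0.56 (95% interval -0.61 to -0.51) and 0.26 (95% interval 0.20 to 0.31). The lowest, median and highest cells were at 5.92, 291.9 and 659 CPM for P2- and 0, 179 and 487 CPM for P2+ among the MEPs, and 1.57, 189.6 and 393 CPM for P2- and 68.6, 254.9 and 467 CPM for P2+ among the CMPs. All 4 ranges overlapped, with 37 of 47 P2+ MEPs below the median P2- MEP and 31 of 42 P2+ CMPs above the median P2- CMP. Whether the 2 effects differ was not tested, with 1 sample per population. The parent Rpl7 was at 2327, 2118, 1992 and 2090.3 CPM. Rps27l, a target of p53, had a share of 27.7 and 27.1% for the P2- and P2+ MEPs and 25.3 and 26.7% for the P2- and P2+ CMPs in the reads of its pair with Rps27. Rps27l was at 879, 767, 685 and 635 CPM and Rps27 at 2291, 2066, 2024 and 1745 CPM. Rps27 has few windows of its own (1.45%, against 85.8% for Rps27l), so the proportion is uncertain.

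**Figure D4:**
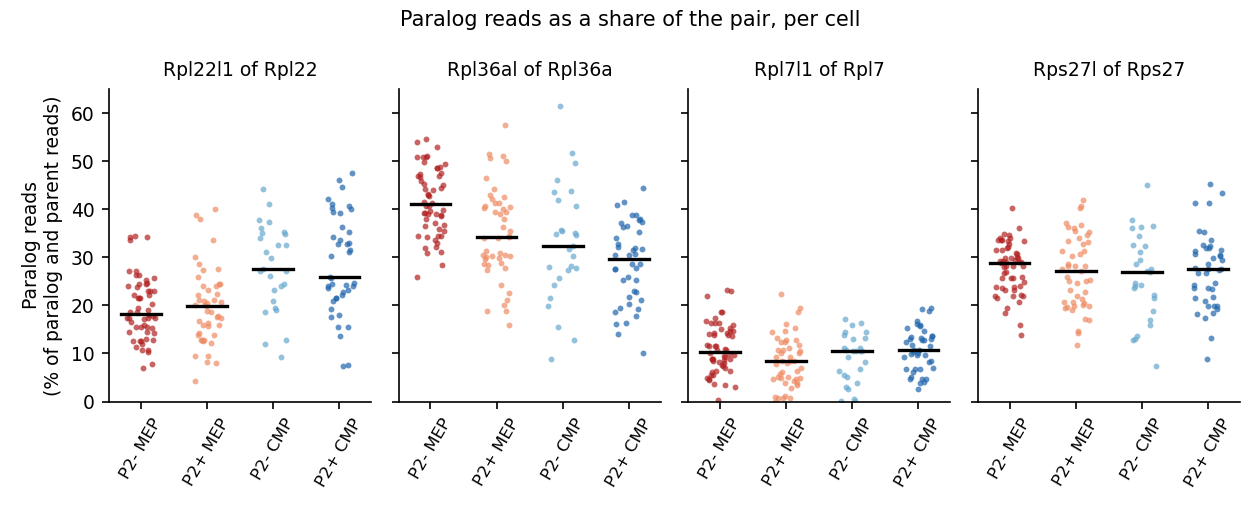
Reads of a paralog as a percent of the reads of paralog and parent together, 1 point per cell, for 4 pairs and 4 populations, with lines at the medians over cells. The Rpl22l1 share is higher in CMPs (medians 27.6 and 25.8%) than in MEPs (18.3 and 19.9%), that of Rpl36al goes down from P2- MEPs (41.1%) to P2+ CMPs (29.6%), and that of Rps27l is between 26.998 and 28.9% in all 4.

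The paralogs known from other tissues were nearly silent. Rpl39l, known from testis, had 133 reads in P2+ MEPs, from 2 cells with 82 in the higher, and 81 reads in P2- CMPs, from 1 cell. It had 0 reads in P2- MEPs, for which a limit of 3 counts allows a share of cells with a read of up to 5.36%, and 0 in P2+ CMPs, which allows up to 7.14%. Against a floor of 3 reads per population, its log2 ratio was at least 5.43 in P2+ over P2- MEPs and at least 5.49 in P2- CMPs over P2- MEPs, and these bounds rest on those 3 cells. Its parent Rpl39, which lines the exit tunnel, was at 799, 859, 721 and 602 CPM with ratios of 0.10 (95% interval 0.08 to 0.13) in MEPs and -0.51 (95% interval -0.54 to -0.49) in P2+ CMPs over P2+ MEPs, which against the spike-in reads were -0.51 and -0.08, the first with the other sign. Rpl3l, the form of Rpl3 in striated muscle, had 31 reads, all in 1 P2+ CMP, beside 1906, 1699.6, 1451 and 1431 CPM of Rpl3 in the 4 populations. Rpl10l, which stands in for Rpl10 in male meiosis, had 2 reads in 1 P2- MEP and none elsewhere, beside 1987, 1731, 1568 and 1441 CPM of Rpl10. Rpl6l was at 6.27, 7.13, 5.18 and 7.12 CPM and was found in 52, 47, 26 and 42 of the 56, 47, 27 and 42 cells without thinning. It is a single exon with 29.2% of windows of its own, its later annotation is as a pseudogene, and its share of the reads of the pair with Rpl6 (0.357 and 0.433% for the P2- and P2+ MEPs and 0.344 and 0.409% for the P2- and P2+ CMPs) cannot be told apart from misplaced reads of Rpl6. Rpl6 was at 1753, 1639.8, 1501 and 1737 CPM.

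Of the 20 genes of Diamond-Blackfan anaemia on the list used, all are members. Per read on mouse genes none was more than 1.5-fold apart in any comparison, where 24.5% and 13% of all genes were higher and lower in P2+ over P2- MEPs, 17.1% and 18.2% in P2+ over P2- CMPs, 32.5% and 17.7% in P2- CMPs over P2- MEPs, and 25.5% and 20% in P2+ CMPs over P2+ MEPs. Against the spike-in reads 0 were higher and 19 lower in P2+ over P2- MEPs (12.6% and 48.4% of all genes), 0 and 0 in P2+ over P2- CMPs (30.2% and 10.5%), 0 and 14 in P2- CMPs over P2- MEPs (21.1% and 41.3%), and 2 and 0 in P2+ CMPs over P2+ MEPs (42.5% and 9.96%). Per read on mouse genes, their log2 ratios were below 0 for 18 of 20 in P2+ over P2- MEPs (46.1% of all genes), 12 in P2+ over P2- CMPs (51.7%), 20 in P2- CMPs over P2- MEPs (44.8%) and 16 in P2+ CMPs over P2+ MEPs (49.3%). Of all 82 members 68, 41, 77 and 63 were below 0 in the 4 comparisons, and few were past 1.5-fold. These counts therefore do not set the 20 genes apart from the other members. The median of the 20 genes in P2- CMPs over P2- MEPs was -0.15, beside -0.23 for all 82 members and 0.11 for all genes. Rps19, the gene most often affected, was at 2269.8 and 2188 CPM in the P2- and P2+ MEPs and at 2203 and 2182 CPM in the P2- and P2+ CMPs, with ratios of -0.05, -0.01, -0.04 and 0.00 in the 4 comparisons per read on mouse genes and -0.67, 0.32, -0.56 and 0.43 against the spike-in reads. Its lowest, median and highest cells were at 1567, 2248 and 3029 CPM for P2- and 1174, 2104 and 3722 CPM for P2+ among the MEPs, and 1306, 2226 and 3290.3 CPM for P2- and 1579, 2170.1 and 2970.1 CPM for P2+ among the CMPs. Rpl5 and Rpl11, which in a particle with ribosomal RNA bind MDM2 and so stabilise p53, were lower in CMPs per read on mouse genes, while against the spike-in reads the ratios of P2+ CMPs over P2+ MEPs had the other sign (0.31 and 0.32). Rpl11 was at 1305 and 1220.1 CPM in the P2- and P2+ MEPs and at 1012 and 1127 CPM in the P2- and P2+ CMPs, with a ratio of -0.37 (95% interval -0.39 to -0.34) for P2- CMPs over P2- MEPs and 0.16 (95% interval 0.13 to 0.18) for P2+ over P2- CMPs. Rpl5 was at 921 and 850.3 CPM in the P2- and P2+ MEPs and at 823 and 779.6 CPM in the P2- and P2+ CMPs, with ratios of -0.16 (95% interval -0.19 to -0.13) for P2- CMPs over P2- MEPs and -0.08 (95% interval -0.11 to -0.05) for P2+ over P2- CMPs, and 46.6% of its exon bases overlap Fam69a.

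Rpsa, Rack1 and Fau, ribosomal genes outside the name rule, were also lower in P2- CMPs than in P2- MEPs. Rpsa, the laminin receptor of the small subunit, was at 2547, 2662, 2119 and 2056 CPM in the 4 populations, Rack1, a scaffold for kinases on the small subunit, at 2476, 2063, 1714 and 1791, and Fau, made as a fusion with a ubiquitin-like protein, at 1358, 1214, 1087 and 1098. Their log2 ratios of P2- CMPs over P2- MEPs were -0.27, -0.53 and -0.32, of which that of Rack1 lay well below the lower quartile of the members, -0.32. In P2+ over P2- MEPs they were 0.06, -0.26 and -0.16 per read on mouse genes. Per spike-in read, where the summed ratio of the members in that comparison moved from -0.10 to -0.71, that of Rpsa was below 0 as well.

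Over the cells of 1 population the members varied little. In the range of 895 to 1956 CPM, the median coefficient of variation (SD over mean of the CPM of single cells) was 0.169 for 38 members in P2- MEPs, against 0.242 for 52 other genes. It was 0.213 against 0.290 in P2+ MEPs, 0.208 against 0.335 in P2- CMPs and 0.196 against 0.291 in P2+ CMPs. In P2- MEPs, 5 of the 52 other genes varied less than the median member, and 2 of 38 members varied more than the median other gene. Rps16 had the lowest value there (0.108) and Rps3a1 the highest of the range (0.281), both named after their values were seen. Rps3a1 was the most variable member of the range in all 4 populations. Rpl7l1, below the range, varied more, with a coefficient of 0.483 in P2- MEPs. The share of reads on all members together was also set beside depth. Over cells, its rank correlation with the reads on mouse genes was between -0.18 and 0.26 in the 4 populations (27 to 56 cells), given as a description.

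**Figure D5:**
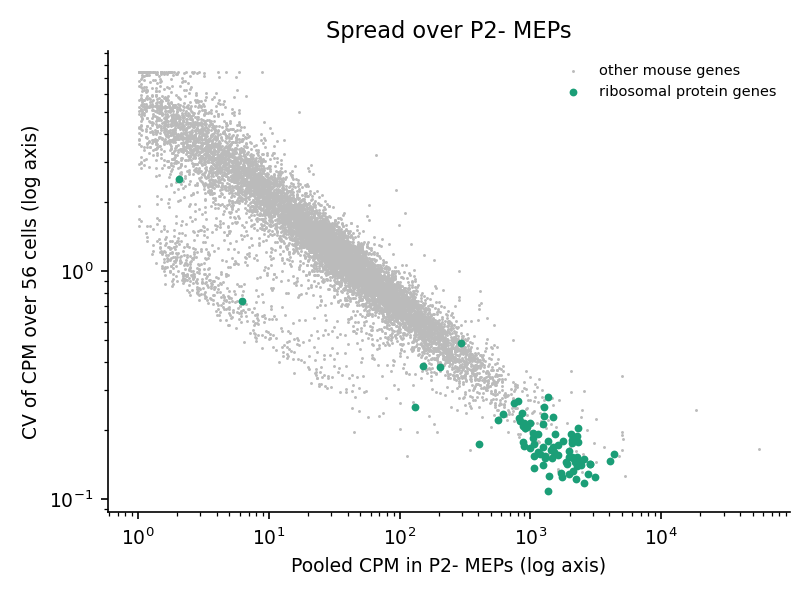
Coefficient of variation of CPM over the 56 P2- MEPs against pooled CPM (both axes logarithmic), for members (green) and all other mouse genes that average at least 1 read per cell and more than 1 CPM there (grey). Members lie at the lower edge of the cloud at their level, with a median of 0.169 against 0.242 for other genes between 895 and 1956 CPM.

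Of the measured genes that build ribosomes, 31 of 32 had a ratio below 0 in P2- CMPs over P2- MEPs (44.8% of all genes) and 31 in P2+ CMPs over P2+ MEPs (49.3%) per read on mouse genes. Per spike-in read their median in P2+ CMPs over P2+ MEPs was -0.06, beside 0.44 for all genes. The genes named from these lists were chosen after their values were seen. Of 33 listed genes of ribosome biogenesis 32 averaged at least 1 read per cell. In P2- CMPs over P2- MEPs 0 of these 32 were higher and 15 lower by more than 1.5-fold (32.5% and 17.7% of all genes). Their median was -0.56, beside 0.11 for all genes. In P2+ CMPs over P2+ MEPs 0 were higher and 14 lower (25.5% and 20%), median -0.49. The counts were 0 and 5 in P2+ over P2- MEPs (24.5% and 13%), median -0.31, and 0 and 2 in P2+ over P2- CMPs (17.1% and 18.2%), median -0.19. On the spike-in scale 29 of the 32 were lower in P2- CMPs over P2- MEPs (median -1.07, 41.3% of all genes lower), 31 in P2+ over P2- MEPs (median -0.93, 48.4%), and 0 in P2+ CMPs over P2+ MEPs (median -0.06, 9.96%). In P2+ over P2- CMPs 3 were then higher and 0 lower (median 0.14), against 30.2% and 10.5% of all genes. Nolc1, a nucleolar chaperone, was at 784, 575, 397 and 303.5 CPM in the 4 populations. Nop2, a methyltransferase of ribosomal RNA, was at 254.8, 194, 126 and 127 and nucleophosmin (Npm1) at 4798, 4057, 3484 and 3126 CPM.

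Of the 16 RNA polymerase I genes, which include subunits shared with other polymerases, all 16 were measured. In P2- CMPs over P2- MEPs 0 were higher and 5 lower by more than 1.5-fold per read on mouse genes (32.5% and 17.7% of all genes), with a median of -0.43. The counts were 1 and 3 in P2+ CMPs over P2+ MEPs (25.5% and 20%), 1 and 5 in P2+ over P2- MEPs (24.5% and 13%) and 2 and 2 in P2+ over P2- CMPs (17.1% and 18.2%). The 14 other genes with terminal oligopyrimidine mRNAs had medians of -0.23, -0.03, -0.34 and -0.08 in the 4 comparisons. Of these 14, 3 were lower by more than 1.5-fold in P2- CMPs over P2- MEPs (17.7%) and 1 in P2+ CMPs over P2+ MEPs (20%), and 0 in the other 2. Set against spike-in reads, where 12.6%, 30.2%, 21.1% and 42.5% of all genes were higher and 48.4%, 10.5%, 41.3% and 9.96% lower in the 4 comparisons, the RNA polymerase I genes had 0, 3, 0 and 2 higher and 12, 0, 14 and 0 lower, and the oligopyrimidine genes 0, 1, 0 and 1 higher and 12, 0, 9 and 0 lower. Eef2, the elongation factor of translocation, was at 2218, 1809, 1342 and 1409 CPM in the 4 populations, but Eef1a1, which delivers aminoacyl-tRNA, was highest in P2+ CMPs, at 5022, 4328, 5179.9 and 6299 CPM. Of the 15 regulators, 1 was higher and 2 lower in P2+ over P2- MEPs (24.5% and 13% of all genes), 2 and 8 in P2+ over P2- CMPs (17.1% and 18.2%), 1 and 3 in P2- CMPs over P2- MEPs (32.5% and 17.7%), and 1 and 4 in P2+ CMPs over P2+ MEPs (25.5% and 20%). Per spike-in read, beside the shares of all genes just given for that scale, there were 1, 2, 1 and 3 higher and 12, 2, 8 and 4 lower in the 4 comparisons. Larp1, which binds the pyrimidine tract, was at 196, 145, 109 and 70.3 CPM. Myc, which raises transcription of ribosomal protein genes, was at 394, 345.7, 252.7 and 253.9 CPM and its relative Mycn at 0, 10.04, 103 and 185 CPM, so that Myc was highest in P2- MEPs and Mycn in P2+ CMPs. The relation of these levels to those of the ribosomal protein genes was not tested.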

How the data were processed

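Single MEPs and CMPs were sequenced by a modified Smart-Seq2 protocol with paired-end reads. The authors trimmed reads with Trimmomatic 0.36, aligned them with STAR 2.4.2a to GRCm38 with the ERCC sequences, and counted reads on exons of 49585 GENCODE M12 features without strand in HTSeq 0.6.1p1. The deposited values are raw counts per gene and cell, and a deposited table gives reads by alignment outcome and the percent unmapped per cell. Tally lines and ERCC features were left out of the library totals.

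A cell needed 250000 reads, with no more than 25% of them unmapped and no more than 15% of the counted ones on ERCC features, and 172 of 175 did so. Reads were summed per population and scaled to 1000000 reads on mouse genes (CPM). Genes had to average at least 1 read per cell, a call was a ratio past 1.5-fold, and a population at 0 was set to a floor of 3 reads. Levels have exact Poisson, ratios exact conditional binomial and shares Clopper-Pearson 95% intervals, and for a share of 0 the limit of 3 counts is given. With 1 pooled sample per population no test was possible. Scripts (Python 3.11.15 with numpy 2.4.6, pandas 2.3.3 and scipy 1.17.1, and R 4.3.3 with DESeq2 1.42.0 and edgeR 4.0.16 for size factors only) were tested on simulated data. Exons, 70-base windows and overlaps came from GENCODE vM21, not the M12 of the authors. Low genes were thinned to 100000 reads per cell.

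Named were paralogs with their parents, stalk genes, the 5 highest and 5 lowest members per length, the 3 highest and 3 lowest ratios of each comparison, members under 10 reads, Rps19, Rpl5 and Rpl11, and ribosomal genes outside the rule. Some genes that these rules name are not reported here. Members and lists were chosen with earlier results of these data known, and the range of like level was set after seeing the data.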

Additional observations from a re-analysis of the deposited data

Results flagged for a closer look

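Rpl39l stood out because its log2 ratio had opposite signs in MEPs and CMPs. It was at least 5.43 in P2+ over P2- MEPs and -5.74 or lower in P2+ over P2- CMPs, with bounds of 5.49 in P2- CMPs over P2- MEPs and -5.67 in P2+ CMPs over P2+ MEPs. The difference was not tested. All of its reads came from 3 of 172 cells, 2 P2+ MEPs and 1 P2- CMP, and a P2- CMP value without that cell could not be had.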

How the results depend on the processing

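The summed log2 ratio is given in the order P2+ over P2- MEPs, P2+ over P2- CMPs, P2- CMPs over P2- MEPs and P2+ CMPs over P2+ MEPs. Against -0.10, 0.00, -0.23 and -0.13 as reported, it was -0.056, 0.0080, -0.28 and -0.21 with DESeq2 size factors, -0.15, 0.085, -0.33 and -0.096 with edgeR TMM factors, -0.059, 0.025, -0.17 and -0.088 without mitochondrial genes and Rn18s-rs5 in the denominator, and -0.71, 0.33, -0.74 and 0.31 against ERCC reads. With equal weight for every cell the first, second and last were -0.11, -0.014 and -0.13, and without the cell of highest share in each population the first 3 were -0.10, 0.011 and -0.24. Without the cell with the conflicting label it was -0.0016 for P2+ over P2- CMPs and -0.22 for P2- CMPs over P2- MEPs. Core genes alone gave -0.093 in the first, and adding ribosomal genes that the name rule leaves out gave -0.23 and -0.13 in the last 2. With all deposited cells no summed ratio moved beyond its interval.

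Counts of members past 1.5-fold moved most against ERCC reads, to 73 lower in the first comparison, 3 higher in the second, 65 lower in P2- CMPs over P2- MEPs, and 7 higher and 1 lower in the last. Of all genes, 12.6% were then higher and 48.4% lower in the first comparison, against 24.5% and 13% as reported, 30.2% and 10.5% in the second, 21.1% and 41.3% in P2- CMPs over P2- MEPs, and 42.5% and 9.96% in the last. DESeq2 factors gave 7 lower in the last (22.2% of all genes). TMM factors gave 1 lower in the first (14.4%) and 5 lower in P2- CMPs over P2- MEPs (21.1%), and equal weight gave 1 lower in the first (12.3%). A 2-fold threshold left 1 lower in each comparison of CMPs with MEPs, and a filter of at least 10 reads in both populations together gave 2 higher in the second and 1 higher in the last, the added one being Rpl3l. Shares of all genes were not taken for that threshold or that filter. The cause of these moves in the counts was not tested. Without the cell of highest CPM, Rpl24 went from 1.49 to 2.18 in P2+ over P2- CMPs and from -1.43 to -2.14 in P2- CMPs over P2- MEPs, and Rpl39l to 4.04 in MEPs and -4.28 in P2+ CMPs over P2+ MEPs. Added after seeing the data, the order of members was also taken per coding length, by windows of their own, where 1 of the 5 highest and 4 of the 5 lowest stayed, and by CPM, with the same 1 and 4. The counts and medians of the gene lists against ERCC reads, printed beside each list, were likewise added after seeing the data. An exon length unique in the genome was not run because no genome sequence was used here. No paired analysis was possible because each population is 1 pooled sample and no test was made. Depth limits Rpl24, Rpl39l, Rpl3l and Rpl10l, with 14 or fewer reads in at least 1 population.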
